A study of Mus musculus with 6 samples.

Results

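The genes described are those of the giant and scaffold proteins of the sarcomere, the contractile unit of striated muscle: Ttn, Neb, Nrap, Mybpc1, Mybpc2, Mybph, Myom1, Myom2 and Myom3. They were chosen by name, and each symbol matched 1 Ensembl identifier, so these are 9 of the 55414 identifiers in the count table. RNA sequencing was done on C2C12 cells, a mouse myoblast line whose cells can differentiate and fuse to form myotubes, kept in medium with 10% fetal bovine serum. Cells were transfected by lipofection with an siRNA against Usf2 (siUsf2, 3 libraries) or with a negative control siRNA (siControl, 3 libraries), and all carried the WT genotype. The comparison asks which transcripts differ when the transcription factor USF2 is knocked down. The labels name 1 siRNA against Usf2 and give no time after transfection. They do not say whether libraries of a group came from separate cultures, so p-values measure the spread between these libraries, which may be technical.

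As background, titin (Ttn) runs from the Z-disc to the M-band as a molecular spring and scaffold of the thick filament, and nebulin (Neb) lies along the thin filament and stabilises its length. NRAP, a member of the nebulin family, sits where actin filaments are first built into myofibrils. Myosin-binding protein C (slow form Mybpc1, fast form Mybpc2) and its shorter relative myosin-binding protein H (Mybph) attach to the thick filament, and the myomesins (Myom1, Myom2, Myom3) cross-link thick filaments at the M-band. In differentiating myoblasts these genes are switched on with the contractile proteins that they hold in register. USF2 is a basic helix-loop-helix leucine zipper factor whose preferred site is the E-box CACGTG.

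The genes differ widely in length, which is the second question asked of them here. The exonic length is the union of all annotated exons in GENCODE M21 (GRCm38, the assembly also called mm10). Ttn lies on chromosome 2 at 76703980 to 76982547 (minus strand) and has 116.825 kb of exon, with 347 exons in its longest transcript. Neb lies on chromosome 2 at 52136647 to 52378474 (minus strand) and has 26.582 kb of exon, with 157 exons in its longest transcript. The other 7 have between 2.329 and 10.459 kb. In falling order these are Myom1 (chromosome 17, 71002633 to 71126856), Myom2 (chromosome 8, 15057653 to 15133541), Myom3 (chromosome 4, 135759715 to 135815564), Nrap (chromosome 19, 56320035 to 56390037), Mybpc1 (chromosome 10, 88518279 to 88605152), Mybpc2 (chromosome 7, 44501699 to 44524656) and Mybph (chromosome 1, 134193448 to 134201232). Of the exonic bases of Mybph, 49.9% are also annotated as exon of Adora1, an adenosine receptor gene on the opposite strand. The strand setting of the counting is not given in the sources used here, so reads from that stretch could have been counted for either gene or for neither. Adora1 had 24, 14 and 3 counts in siUsf2 1 to 3, against 51, 48 and 70 in siControl 1 to 3. For each of the other 8 genes, no overlapping gene shared more than 5.57% of the exonic bases.

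RefSeq promoters (GRCm38.p6) were used for 7 of the 9 genes, and those of Neb and Myom2 were not analysed here. The 250 bases before the annotated start are printed, 5′ to 3′ on the strand of the gene, for the 5 that hold CAGCTG or a MEF2 match: Mybph (chr1:134193198-134193447, plus strand), Mybpc1 (chr10:88605153-88605402, minus strand), Nrap (chr19:56390039-56390288, minus strand), Ttn (chr2:76982548-76982797, minus strand) and Myom3 (chr4:135759465-135759714, plus strand). Capitals mark E-boxes (CANNTG, of which CACGTG and CAGCTG are special cases) and matches to the consensus of MEF2, a muscle transcription factor, searched on both strands.
Mybph: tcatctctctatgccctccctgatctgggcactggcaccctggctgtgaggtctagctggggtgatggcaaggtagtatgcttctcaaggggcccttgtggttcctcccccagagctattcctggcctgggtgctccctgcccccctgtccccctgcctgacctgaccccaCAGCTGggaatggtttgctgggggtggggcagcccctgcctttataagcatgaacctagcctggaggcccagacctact
Mybpc1: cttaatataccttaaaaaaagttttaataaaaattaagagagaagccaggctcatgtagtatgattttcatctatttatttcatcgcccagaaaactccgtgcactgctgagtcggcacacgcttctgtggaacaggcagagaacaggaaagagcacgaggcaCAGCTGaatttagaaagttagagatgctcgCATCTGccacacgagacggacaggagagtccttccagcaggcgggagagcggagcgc
Nrap: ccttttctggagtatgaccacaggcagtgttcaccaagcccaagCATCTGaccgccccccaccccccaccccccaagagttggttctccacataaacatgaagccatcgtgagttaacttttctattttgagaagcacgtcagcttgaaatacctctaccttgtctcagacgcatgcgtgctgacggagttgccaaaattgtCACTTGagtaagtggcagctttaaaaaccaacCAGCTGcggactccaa
Ttn: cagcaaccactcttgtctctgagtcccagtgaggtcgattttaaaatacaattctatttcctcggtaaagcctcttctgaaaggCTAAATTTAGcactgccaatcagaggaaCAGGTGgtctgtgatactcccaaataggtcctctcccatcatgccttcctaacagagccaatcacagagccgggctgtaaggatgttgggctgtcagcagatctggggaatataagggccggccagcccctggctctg
Myom3: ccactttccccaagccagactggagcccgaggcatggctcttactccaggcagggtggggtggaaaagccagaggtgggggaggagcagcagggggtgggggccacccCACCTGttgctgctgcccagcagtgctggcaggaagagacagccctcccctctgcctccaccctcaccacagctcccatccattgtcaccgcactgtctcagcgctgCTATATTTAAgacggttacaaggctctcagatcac
CACGTG was found in 0 of the 7 windows, and 6.02% of 32851 RefSeq promoter windows of the same length hold it. CANNTG was in all 7, against 66.2% of all windows. CAGCTG was in 3 (Mybph, Mybpc1 and Nrap), against 13.0% of all windows. The MEF2 consensus was in 2 (CTAAATTTAG in Ttn and CTATATTTAA in Myom3), against 2.92% of all windows. These are matches of letters in a short window, and binding was not measured.

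Total counts were 15817183, 14932880 and 3414565 in siUsf2 1 to 3, and 14790997 to 17715250 in siControl. The library labelled siUsf2 3 stood apart: it was the shallowest and gave 0.974% of its counts to pseudogenes, against 14.0% to 15.3% in the other 5. Usf2 held 17.1, 15.3 and 30.8 CPM (counts scaled to a common library total) in siUsf2 1 to 3, against 26.2, 31.2 and 23.0 CPM in siControl 1 to 3. On the log2 scale it differed by -0.74 without siUsf2 3 (SE 0.14, edgeR adjusted p = 6.43e-04) and -0.40 with it (SE 0.28, edgeR adjusted p = 0.702). That library was set apart partly for its Usf2 level, so the test without it is not independent evidence of the knockdown. The level of Usf2 in the library labelled siUsf2 3 goes against that label. Results are therefore given first without that library (5 libraries) and then with it (6 libraries), and its own values are shown apart. All 6 myoblast markers (Myod1, Myf5, Des, Cdh15, Itga7 and Vcam1) were above 1 CPM in every library, summing to 2334, 2407 and 3131 CPM in siUsf2 1 to 3, against 3040, 3265 and 2698 CPM in siControl 1 to 3. In the 5 libraries, where 6.4% of all genes tested were called lower and 4.97% higher, 4 of the 6 fell and Myf5 rose. With all 6 libraries, where 0.042% of 16662 genes were called lower and 0 higher, 0 of these markers were called. Of 12 markers of other cell types, the fibroblast genes Pdgfra, Dcn and Col14a1 were above 1 CPM in every library, and Pecam1, an endothelial gene, reached 1.17 CPM (4 counts) in siUsf2 3. The remaining 8 were below 1 CPM throughout, with the macrophage gene Adgre1 and the epithelial gene Krt5 at 0. The 12 summed to 157 to 192 CPM in siUsf2 and 176 to 196 CPM in siControl, and the part of either marker list in the results was not tested. In bulk RNA, fewer cells that express a gene and less RNA per cell cannot be told apart.

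Of the 8 genes that could be tested, 6 fell in siUsf2 1 and 2: Mybph, Myom1, Myom2, Myom3, Mybpc1 and Nrap. Neb was lower by about as much as Mybpc1 and Myom2 but did not pass, though it did under other settings described with its values. Ttn was below siControl on average, with overlapping groups, and did not pass. Mybpc2 was too low to test. No gene rose.

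The test was edgeR's quasi-likelihood test on the 5 libraries (siUsf2 1 and 2 against siControl 1 to 3), with an adjusted p below 0.05 taken as a call. It called 6.4% of 17217 genes lower and 4.97% higher, against 6 of 8 lower and 0 of 8 higher among the genes described here. Their median log2 fold change was -1.37, against -0.01 over all genes tested. Every tested gene had at least 15 counts in each library, so none entered the test through its siControl level alone. With all 6 libraries edgeR called 0 of the 8, where it called 0.042% of 16662 genes lower, and the median was -1.19. At an unadjusted p below 0.05 in edgeR, 5 of the 8 were lower (Mybph, Myom1, Myom2, Myom3 and Mybpc1). Over all genes, 1753 of 16662 were below that value in either direction. DESeq2 and limma-voom each called 4 on the same 6 libraries, namely Mybph, Myom1, Myom3 and Mybpc1. Of the 16662 genes, DESeq2 called 410 lower and limma-voom 85.

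**Figure D1:**
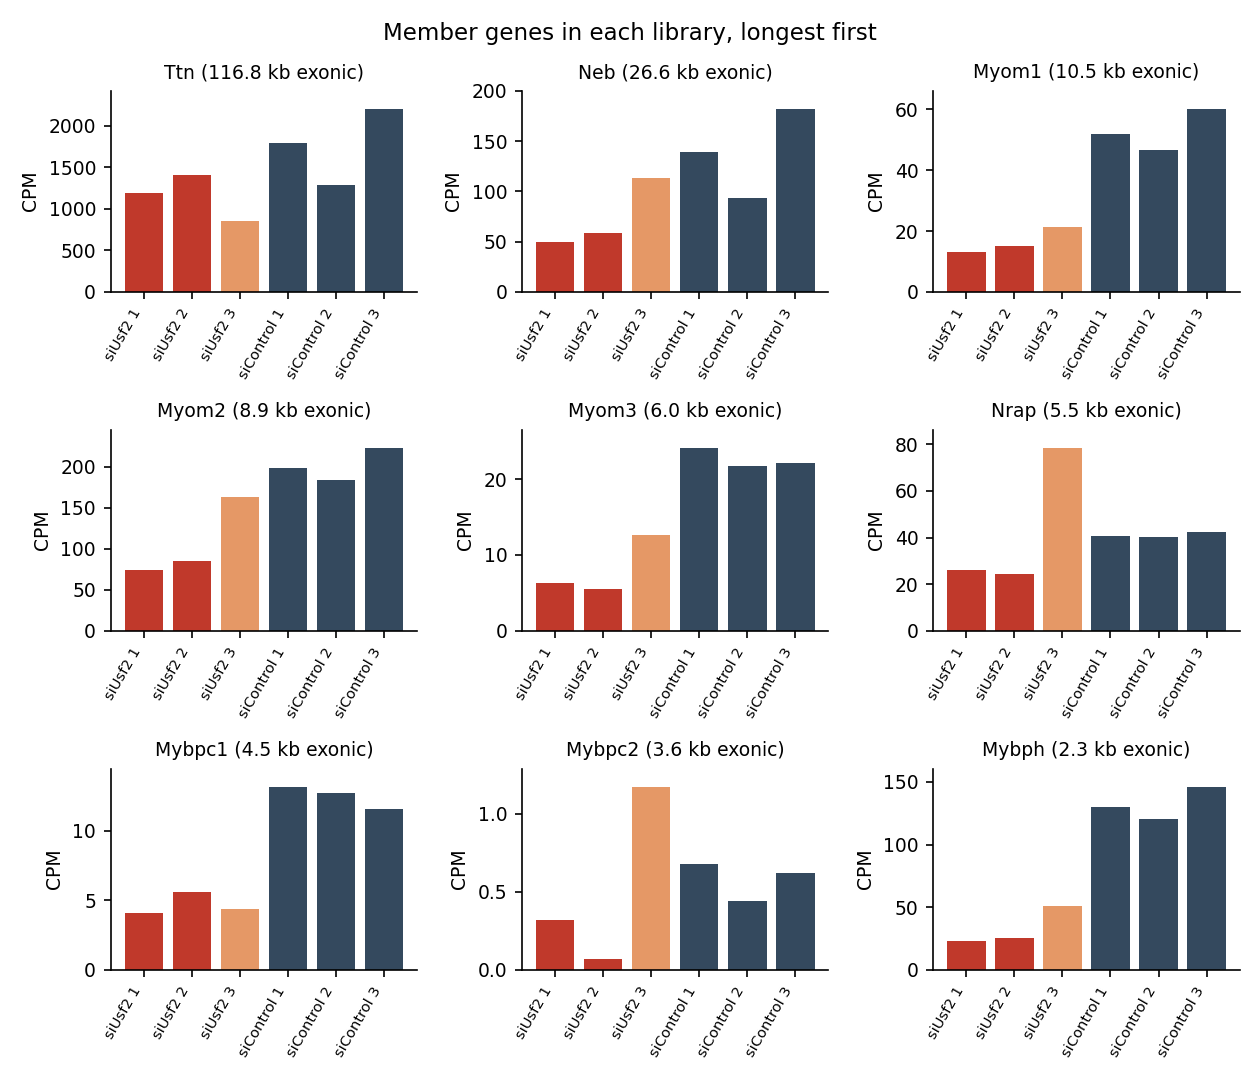
CPM of each gene in each library, 1 panel per gene in order of exonic length (vertical axes start at 0 and differ between panels; red, siUsf2 1 and 2; orange, siUsf2 3; dark, siControl). In siUsf2 1 and 2 every gene but Ttn lies below all siControl bars, while siUsf2 3 lies above them for Nrap and Mybpc2 and between them for Neb.

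The thick-filament gene Mybph showed the largest decrease of the 8 tested. Mybph held 22.6, 25.8 and 51.3 CPM in siUsf2 1 to 3, against 130, 121 and 146 CPM in siControl 1 to 3. All 3 siUsf2 libraries lay below every siControl library, with siUsf2 3 the least low. In the 5 libraries Mybph averaged 24.2 ± 2.23 CPM in siUsf2 (SD, n = 2) and 132 ± 12.9 CPM in siControl (SD, n = 3). That is -2.47 on the log2 scale (SE 0.11), with an edgeR adjusted p of 1.24e-15. Over all 6 libraries it was -2.05 (SE 0.32, edgeR adjusted p = 0.114). Because of the overlap with Adora1, these values rest on the part of Mybph that the counting could assign.

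Mybpc1, the slow form of myosin-binding protein C, fell too, at a lower level. Mybpc1 held 4.11, 5.63 and 4.39 CPM in siUsf2 1 to 3, against 13.2, 12.7 and 11.6 CPM in siControl 1 to 3. The groups did not overlap, and the library labelled siUsf2 3 lay between siUsf2 1 and 2, on only 15 counts (95% Poisson interval 2.46 to 7.25 CPM). The log2 fold change was -1.37 in the 5 libraries (SE 0.20, edgeR adjusted p = 1.58e-05) and -1.43 in all 6 (SE 0.20, edgeR adjusted p = 0.0862). Mybpc2, the fast form, was barely detected, with 5, 1 and 4 counts in siUsf2 1 to 3, against 10, 7 and 11 counts in siControl 1 to 3. Both siUsf2 1 and siUsf2 2 lay below every siControl library and siUsf2 3 above, and no test was made at these counts.

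All 3 myomesin genes fell in the 5 libraries. Myom2, which encodes M-protein and was the most abundant of the 3, held 73.8, 85.4 and 163 CPM in siUsf2 1 to 3, against 198, 184 and 223 CPM in siControl 1 to 3. The library labelled siUsf2 3 lay just below the lowest siControl library. Myom2 fell in the 5 libraries, at a log2 ratio of -1.35 ± 0.10 (SE) with an edgeR adjusted p of 7.7e-11. In all 6 the ratio was -0.96 ± 0.30 (SE), with an edgeR adjusted p of 0.348.

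Myom1, the myomesin found across striated muscle types, held 13.0, 15.1 and 21.4 CPM in siUsf2 1 to 3, against 51.9, 46.5 and 60.2 CPM in siControl 1 to 3. Every siUsf2 library was below every siControl library. Myom1 fell in the 5 libraries, at a log2 ratio of -1.93 ± 0.13 (SE) with an edgeR adjusted p of 1.09e-11. In all 6 the ratio was -1.73 ± 0.21 (SE), with an edgeR adjusted p of 0.0694. Myom3, the remaining myomesin, held 6.32, 5.49 and 12.6 CPM in siUsf2 1 to 3, against 24.1, 21.7 and 22.1 CPM in siControl 1 to 3. These groups did not overlap either, with siUsf2 3 the highest of its group. Myom3 fell in the 5 libraries, at a log2 ratio of -1.95 ± 0.17 (SE) with an edgeR adjusted p of 5.59e-10. In all 6 the ratio was -1.56 ± 0.32 (SE), with an edgeR adjusted p of 0.183. On the log2 scale Myom2 thus differed by less than Myom1 and Myom3 in the 5 libraries, with 95% intervals from the SE of -1.55 to -1.16, -2.19 to -1.67 and -2.28 to -1.62 for Myom2, Myom1 and Myom3, and no test of the difference was run.

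Nrap, the early myofibril assembly protein, gave the smallest decrease among the called genes and the widest range of siUsf2 libraries among the tested genes on the log2 scale. Nrap held 26.2, 24.4 and 78.5 CPM in siUsf2 1 to 3, against 40.6, 40.05 and 42.2 CPM in siControl 1 to 3. The first 2 siUsf2 libraries lay below the narrow siControl range, whereas the library labelled siUsf2 3 lay above it (268 counts, 95% Poisson interval 69.4 to 88.5 CPM). The log2 fold change was -0.71 in the 5 libraries (SE 0.11, edgeR adjusted p = 4.94e-05). It was 0.01 in all 6 (SE 0.47, edgeR adjusted p = 0.998), and this sign changed with the settings used.

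Titin and nebulin behaved differently from these shorter genes in that their siControl libraries were spread widely. Ttn held 1184, 1411 and 853 CPM in siUsf2 1 to 3, against 1793, 1285 and 2202 CPM in siControl 1 to 3. The groups overlapped, since siUsf2 2 lay above siControl 2, and the library labelled siUsf2 3 was the lowest of all. Ttn averaged 1297 ± 161 CPM in siUsf2 1 and 2 (SD, n = 2) and 1760 ± 459 CPM in siControl (SD, n = 3). The difference was -0.45 as a log2 ratio (SE 0.25, adjusted p in edgeR = 0.347, 95% interval from the SE, -0.94 to 0.04). Over all 6 libraries it was -0.64 (SE 0.28, edgeR adjusted p = 0.521).

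Neb held 49.1, 58.6 and 113 CPM in siUsf2 1 to 3, against 139, 93.6 and 182 CPM in siControl 1 to 3. The first 2 siUsf2 libraries lay below every siControl library, and the library labelled siUsf2 3 lay within the siControl range. Neb averaged 53.8 ± 6.74 CPM in siUsf2 1 and 2 (SD, n = 2) and 138 ± 44.2 CPM in siControl (SD, n = 3). The difference was -1.38 as a log2 ratio (SE 0.35, adjusted p in edgeR = 0.102). Over all 6 libraries it was -0.96 (SE 0.40, edgeR adjusted p = 0.501). The Neb difference was thus about the size of that of Mybpc1 and Myom2, which were called, but with a larger error.

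The siControl libraries differed more for Ttn and Neb than for the called genes. The highest siControl library exceeded the lowest 1.95 times for Neb and 1.71 times for Ttn, against 1.05 to 1.29 times for the 6 called genes. As the SD of log2 CPM over the 3 siControl libraries, Neb had 0.49 and Ttn 0.40, larger than in 99.9% and 99.4% of the 9577 protein-coding genes whose log2 CPM averaged 3 or more. Those genes were of all lengths. Among 1264 other protein-coding genes with at least 10 kb of exon, a set without that cut on level, 34 had a larger SD than Neb and 60 a larger SD than Ttn. In both genes siControl 3 was the highest of the group and siControl 2 the lowest, an order also seen in Myom1, Myom2, Mybph and Nrap with smaller steps. Without siControl 2 both genes passed, Ttn at -0.64 as a log2 ratio (SE 0.10, adjusted p in edgeR = 4.16e-04) and Neb at -1.59 (SE 0.12, edgeR adjusted p = 4.24e-08). Without robust estimation of the spread, which leaves the spread of outlying genes closer to their own estimate, both also passed, at edgeR adjusted p = 0.0363 for Ttn and 4.18e-06 for Neb. Neb alone passed with DESeq2 (adjusted p = 0.00403) and with limma-voom (adjusted p = 2.84e-05). Without siControl 3 neither passed, and the log2 fold change of Ttn was -0.25 (SE 0.20, edgeR adjusted p = 0.5).

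Since counts grow with length, levels are compared between genes as CPM per kb of exon. In siUsf2 1 and 2 the leading levels were 11.1 ± 1.38 for Ttn, 10.4 ± 0.956 for Mybph and 8.99 ± 0.927 CPM per kb for Myom2 (SD, n = 2), and those of Ttn and Mybph overlapped. In siControl the order was Mybph at 56.8 ± 5.54, Myom2 at 22.8 ± 2.24 and Ttn at 15.1 ± 3.93 CPM per kb (SD, n = 3), with no overlap between libraries of neighbouring genes. In the library labelled siUsf2 3 the order was Mybph at 22.0, Myom2 at 18.4, Nrap at 14.3 and Ttn at 7.3 CPM per kb. This order depends on the length used. Per kb of the longest transcript, Myom2 led in siUsf2 1 and 2 at 15.7 ± 1.62, ahead of Ttn at 12.1 ± 1.5 and Mybph at 10.4 ± 0.96 CPM per kb (SD, n = 2), and it also led in siUsf2 3, while the siControl order was the same. The level of Mybph could be too low by any reads lost to the overlap with Adora1. The remaining genes lay lower. By exonic length, Nrap was at 4.59 ± 0.231 in siUsf2 1 and 2 and 7.44 ± 0.205 CPM per kb in siControl. Neb was at 2.02 ± 0.254 in siUsf2 1 and 2 and 5.2 ± 1.66 CPM per kb in siControl, where it overlapped Myom1 and Myom3 (5.06 ± 0.66 and 3.75 ± 0.215 CPM per kb). Ttn alone gave 85.8%, 86.5% and 65.7% of the counts of the 9 genes in siUsf2 1 to 3, and 75.0%, 71.2% and 76.2% in siControl 1 to 3. A sum over the 9 genes therefore follows Ttn, at 0.138%, 0.163% and 0.13% of all counts in siUsf2 1 to 3, against 0.239%, 0.18% and 0.289% in siControl 1 to 3.

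**Figure D2:**
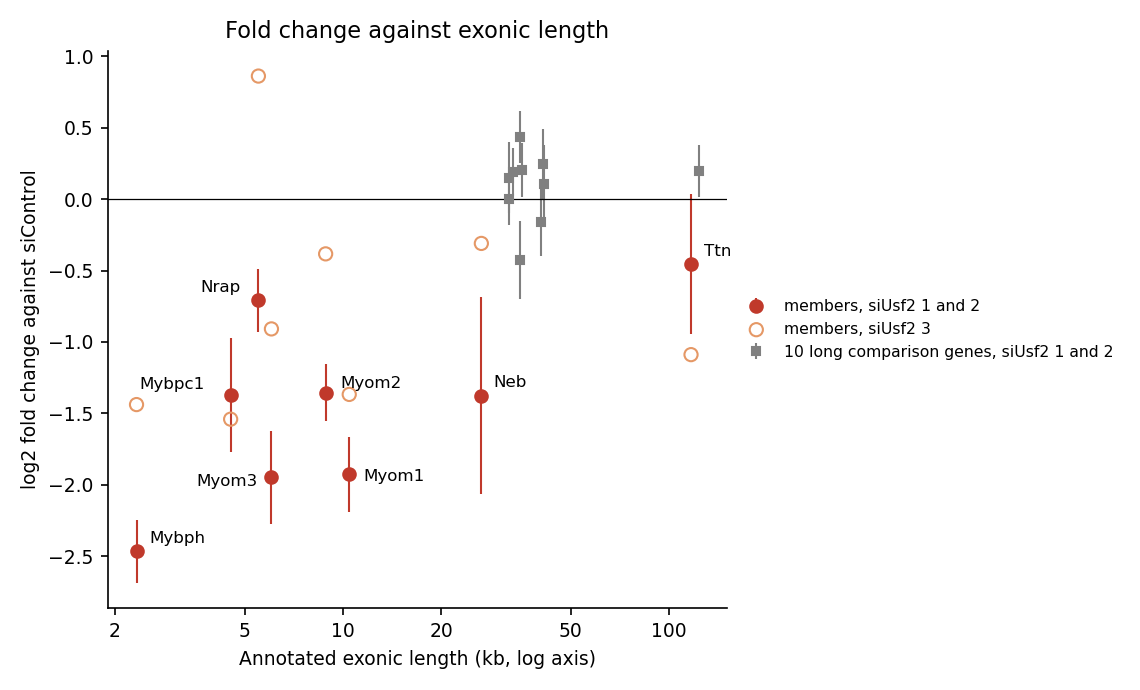
Log2 fold change against siControl (vertical axis) by exonic length (kb, log axis) for the 8 tested genes in siUsf2 1 and 2 (red, with bars for 95% intervals from the SE) and in siUsf2 3 (orange circles, no error), and for 10 other long genes in siUsf2 1 and 2 (grey). The decrease is -2.47 in the shortest gene, Mybph, and -0.45 in the longest, Ttn, while Neb lies at -1.38.

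Whether length itself goes with the response was examined next. Over the 8 genes, the rank correlation of length with the log2 fold change of the 5 libraries was 0.43, and it was 0.36 for the library labelled siUsf2 3 against the siControl mean. This is a description over 8 genes that share their libraries. The order was not a smooth one: Nrap, with 5.507 kb of exon, had a smaller decrease than Neb, and Myom1, with 10.459 kb, had a larger one than Mybpc1.

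Most other genes of great exonic length did not share the decrease: of 10 such genes outside the lists used here, 1 fell. The 10 longest protein-coding genes whose log2 CPM averaged 3 or more outside the lists used here had 32.279 to 123.179 kb of exon and a median log2 fold change of 0.17 in the 5 libraries (range -0.43 to 0.44). Ank3, an ankyrin gene, rose (0.44, SE 0.09, edgeR adjusted p = 0.00177) and Ank2, another ankyrin gene, fell (-0.43, SE 0.14, edgeR adjusted p = 0.0459). The other 8 did not pass, among them Dst, a cytoskeletal linker, at 0.25 (SE 0.12) and Syne1, a nuclear envelope protein, at -0.16 (SE 0.12). The exonic length sums all annotated exons and can exceed any 1 transcript: Ank3 has 34.8 kb of exon and a longest transcript of 9.96 kb. Among 1264 other protein-coding genes with at least 10 kb of exon, 3.88% were called lower and 12.3% higher, and 4.75% had a log2 fold change below that of Ttn and 0.87% below that of Neb. In the library labelled siUsf2 3, the 10 longest genes had a median log2 ratio to the siControl mean of -0.28 (range -0.58 to 0.48). Ttn was at -1.09 there and Neb at -0.31. Of the 1264 genes, 3.01% lay below Ttn and 29.5% below Neb in that library.

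Across all protein-coding genes the libraries differed by gene length. In siUsf2 1 and 2 the median log2 ratio to the siControl mean was -0.12 in both for genes under 2 kb, and 0.11 in both for genes of 10 kb or more. In the library labelled siUsf2 3 the medians ran the other way, 0.25 and -0.12. Within siControl, siControl 2 had medians of 0.10 and -0.10, siControl 3 of -0.11 and 0.09, and siControl 1 of 0.01 and 0.02. In size, the medians of siUsf2 1 and 2 were thus close to those of siControl 2 and 3. The median of siUsf2 3 for genes under 2 kb was larger. The 2 siControl libraries that differ most in this respect are also the lowest and the highest for Ttn and Neb.

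**Figure D3:**
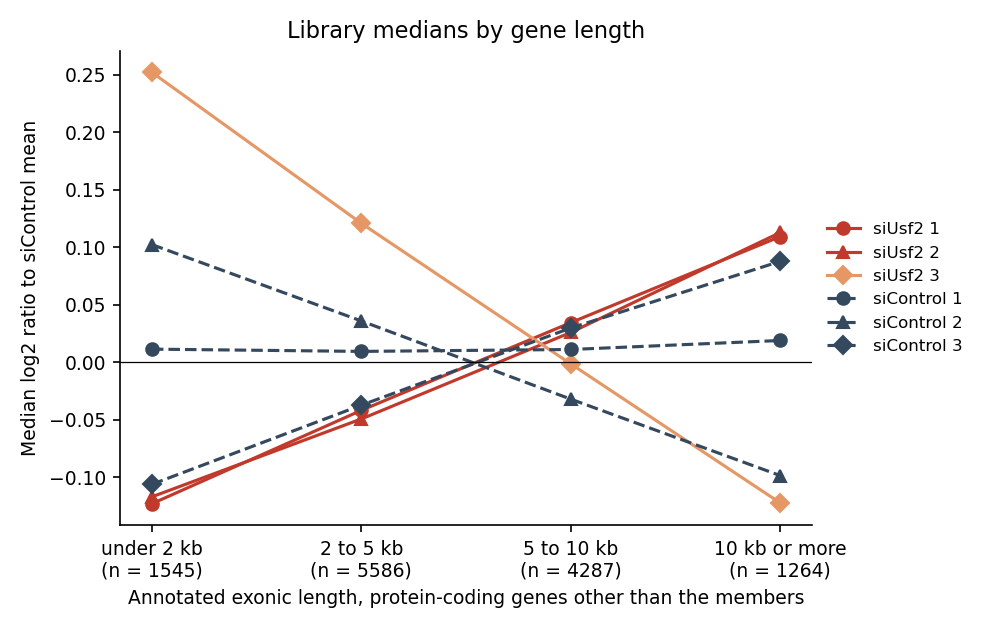
Median log2 ratio to the siControl mean in each library (vertical axis) for protein-coding genes in 4 classes of exonic length, the 9 genes left out (red, siUsf2 1 and 2; orange, siUsf2 3; dark and dashed, siControl). The medians increase with length in siUsf2 1, siUsf2 2 and siControl 3 and decrease in siUsf2 3 and siControl 2, reaching 0.25 for genes under 2 kb in siUsf2 3.

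The comparison was repeated with the trend of each library on exonic length removed. In the 5 libraries all 8 tested genes then fell. Across the length classes, that fit called 6.96% to 9.58% of the other protein-coding genes lower and 2.91% to 7.75% higher. Ttn was then at -0.62 as a log2 ratio (SE 0.09, adjusted p in edgeR = 2.64e-05), Neb at -1.48 (SE 0.22, edgeR adjusted p = 0.00851) and Mybph at -2.44 (SE 0.11). The siControl SD of log2 CPM shrank to 0.16 for Ttn and 0.35 for Neb with the trend removed, against 0.40 and 0.49 before. The removed trend at the length of Ttn was -0.32 in siControl 2, 0.15 in siControl 3 and -0.06 in siControl 1. Both siUsf2 libraries had a positive trend at that length, 0.09 for siUsf2 1 and 0.15 for siUsf2 2. Its removal therefore did more than narrow the siControl spread: it also shifted the Ttn difference itself, from -0.45 to -0.62. Only 5 tested genes, Ttn included, have 50 kb of exon or more, so few genes define the trend there. D10Wsu102e, the 1 tested gene longer than Ttn (123.179 kb), did not follow it, with 77.8, 83.2 and 82.7 CPM in siControl 1 to 3. The trend was also fitted without the 9 genes, an alternative chosen after seeing the data. With that trend removed, the siControl SD of log2 CPM of D10Wsu102e was 0.24, against 0.05 before, so its libraries moved further apart. Ttn was then at -0.65 (SE 0.09, edgeR adjusted p = 2.03e-05) and Neb at -1.49 (SE 0.22, edgeR adjusted p = 0.0102). With the trend fitted on all genes, 6.96% of the other genes with at least 10 kb of exon were called lower and 7.75% higher. With all 6 libraries none of the 8 passed after removal of that trend, and Ttn was at -0.61 (SE 0.12, edgeR adjusted p = 0.186). At an unadjusted p below 0.05 in edgeR there were 6 of the 8, and 1678 of all 16614 genes in either direction.

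**Figure D4:**
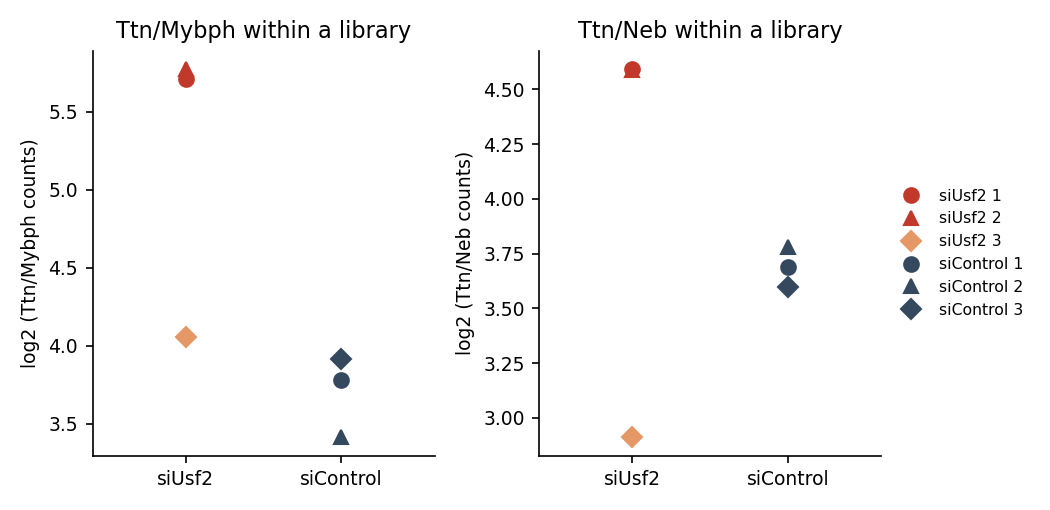
Log2 ratio of Ttn to Mybph counts (left) and of Ttn to Neb counts (right) in each library, with siUsf2 to the left of siControl in each panel. In siUsf2 1 and 2 both ratios lie above every siControl library, whereas siUsf2 3 lies at 4.06 for Ttn to Mybph and at 2.91 for Ttn to Neb.

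Ratios within a library show how far the genes moved apart, free of sequencing depth. The log2 ratio of Ttn to Mybph counts was 5.71, 5.77 and 4.06 in siUsf2 1 to 3, against 3.78, 3.41 and 3.91 in siControl 1 to 3. All 3 siUsf2 libraries were above every siControl library, by 2.04 on average in the 5 libraries and 1.48 in all 6 (exact permutation test, two-sided, p = 0.1 each, the smallest p that either design allows). The log2 ratio of Ttn to Neb counts was 4.59, 4.59 and 2.91 in siUsf2 1 to 3, against 3.69, 3.78 and 3.6 in siControl 1 to 3. It was higher by 0.90 in the 5 libraries (exact permutation p = 0.1, again the smallest possible), but the library labelled siUsf2 3 lay below all others, and over the 6 libraries the difference was 0.34 (exact permutation p = 0.4). Over these 4 comparisons the Benjamini-Hochberg adjusted values were 0.133, 0.133, 0.133 and 0.4. Ttn and Neb, which varied together across siControl libraries, thus kept a narrow ratio there (SD 0.09, n = 3), while the ratio of Ttn to the short gene Mybph varied more (SD 0.26, n = 3).

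Relatives of these proteins were called in both directions. Of 12 related genes (titin-like and myopalladin-family proteins, the remaining myosin-binding proteins and the nebulin family members Nebl and Lasp1), 9 could be tested in the 5 libraries: 3 fell, 1 rose and 5 did not pass, against 6.4% lower and 4.97% higher over all genes. Their median log2 fold change was -0.53, against -0.01 over all genes. Obsl1, a cytoskeletal linker at the M-band, held 54.7, 56.3 and 66.2 CPM in siUsf2 1 to 3, against 100.3, 108 and 84.9 CPM in siControl 1 to 3. All siUsf2 libraries were below every siControl library, and Obsl1 fell, with a log2 fold change of -0.83 (SE 0.10) in the 5 libraries. So did Mypn, the Z-disc protein myopalladin, at -1.98 (SE 0.29). Mylk, the smooth muscle myosin light chain kinase, rose by 0.62 (SE 0.12). Mybpc3 and Mybphl, the forms known from heart, had 0 counts in every library. With all 6 libraries none of the 9 passed in edgeR, where 0.042% of 16662 genes were called lower and 0 higher.

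Genes of proteins that bind, assemble or regulate these scaffolds were lower in part. Of 25 such genes, 24 could be tested in the 5 libraries: 13 fell, 1 rose and 10 did not pass, against 6.4% lower and 4.97% higher over all genes. Their median log2 fold change was -0.86, against -0.01 over all genes. Ckm, the muscle creatine kinase that docks at the M-band, held 9.8, 10.0 and 20.2 CPM in siUsf2 1 to 3, against 57.7, 52.4 and 62.6 CPM in siControl 1 to 3, with no overlap (log2 fold change -2.55, SE 0.13, in the 5 libraries). Also lower, as log2 fold changes, were the myosin chaperone Unc45b at -2.74 (SE 0.16), the nebulin-binding Klhl41 at -2.06 (SE 0.11) and the methyltransferase Smyd1 at -1.81 (SE 0.11). Klhl41 and Smyd1 were also called over all 6 libraries, at edgeR adjusted p = 0.049 and 0.0392, the 2 of 24 that passed there. In that fit 0.042% of 16662 genes were called lower and 0 higher. Rbm20, a splicing regulator of titin, was at -0.12 (SE 0.10) and did not pass, whereas Rbm24, another muscle splicing factor, fell, at -1.03 (SE 0.09). Rbm20 and Rbm24, and Fhl2 as the gene that rose (0.28, SE 0.09), were named after their values were seen, and 1 of 24 is near the share over all genes.

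The genes closest to Ttn in their log2 CPM over the 6 libraries, each centred on its mean, were Unc5c, Prkaa2 and Slfn9, at root-mean-square distances of 0.10, 0.13 and 0.13. Those closest to Neb were Afap1l1, Naca and Ryr1, at distances of 0.22, 0.23 and 0.25. Ryr1, the calcium release channel of the sarcoplasmic reticulum, held 69.8, 73.3 and 135 CPM in siUsf2 1 to 3, against 188, 148 and 164 CPM in siControl 1 to 3. Unc5c, a netrin receptor, held 26.5, 30.7 and 17.9 CPM in siUsf2 1 to 3, against 35.9, 29.4 and 40.7 CPM in siControl 1 to 3. Like Ttn, Unc5c was lowest in siUsf2 3 and overlapped siControl in siUsf2 2, a likeness that follows from how it was chosen.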

How the data were processed

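RNA from C2C12 cells was sequenced in 3 siUsf2 and 3 siControl libraries. The deposited values used are whole-number read counts per gene. Per the submitters' processing notes, which name tools without order or settings, FastQC, Trimmomatic, HISAT2, featureCounts, DESeq2 and the build mm10 were used. A second deposited table of the same libraries, scaled to a common library total, was not used. Counts were tested with edgeR 4.0.16 (R 4.3.3): filterByExpr, TMM normalization and robust quasi-likelihood F tests, two-sided. P-values were adjusted across every tested gene by the Benjamini-Hochberg method. The SE is the absolute log2 fold change divided by the square root of F. CPM are counts divided by all counts of the library and scaled to a common total. Intervals from the SE are normal approximations that take no account of the few libraries. Poisson intervals (95%, exact) cover counting error only. For the length trend, the log2 CPM of each gene was centred on its mean over the libraries of both groups. In each library these centred values were fitted on log2 exonic length by loess (span 0.5), and the fitted trend was removed. A difference between the groups that depends on length is thereby removed as well. Alternatives used DESeq2 1.42.0 and limma 3.58.1, other normalizations and filters, and each library left out.

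The genes and lists were chosen with earlier results of these data known. Named are all 9 genes, Usf2, the 4 tested genes of smallest p in each of the related and partner lists, the 10 longest other protein-coding genes whose log2 CPM averaged 3 or more, and the 3 genes closest in profile to Ttn and to Neb. Each library was counted as 1 replicate. Pairs of libraries within a group differed by more than sampling noise, which does not show whether they came from separate cultures. The values of 1 gene of the related list are not reported here.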

Additional observations from a re-analysis of the deposited data

How the results depend on the processing

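In the 5 libraries no log2 fold change of the 8 tested genes changed sign under the alternatives run, and between 6 and 8 of these genes were called lower. Ttn ranged over -0.65 to -0.24 and Neb over -1.59 to -1.10. Over all genes, edgeR made 1957 calls in the 5 libraries, 938 at an adjusted p below 0.01, and 868 to 3560 with 1 library left out (868 without siUsf2 1, 1171 without siUsf2 2, 1055 without siControl 1, 1144 without siControl 2 and 3560 without siControl 3). Leaving out siUsf2 1 or 2 leaves 1 siUsf2 library, whose spread is then assumed to equal that of siControl. Upper-quartile normalization put 55.5% of the calls higher, against 43.7% with TMM. With all 6 libraries there were 7 calls: 4 with RLE size factors, 0 with upper-quartile normalization, 3 with library size only, 196 with protein-coding genes only, 0 with the length trend removed, also when it was fitted without the 9 genes (chosen after seeing the data), 706 with DESeq2, 104 with limma-voom, 116 without a low-count filter, 4 with a filter of 1 CPM, 0 at an adjusted p below 0.01, and 0 to 1957 with 1 library left out (1957 without siUsf2 3). Of the 8 genes, 0 were called lower with 6 libraries, 4 with protein-coding genes only, 4 with DESeq2, 4 with limma-voom, 2 without a low-count filter, and 0 to 6 with 1 library left out. Over all genes, the lower calls in the first 5 of these settings were 7 of 16662, 158 of 12498, 410 of 16662, 85 of 16662 and 104 of 29434, in that order. The log2 fold change of Nrap in 6 libraries was 0.01 and reversed to -0.043 with protein-coding genes only, -0.44 with limma-voom, -0.030 without a low-count filter and -0.20 with the replicate block, and ranged from -0.71 without siUsf2 3 to 0.29 without siUsf2 2, at -0.01 without siControl 2 and -0.000435 without siControl 1; the cause was not tested. The median log2 fold change of genes of 5 to 10 kb was 0.02 by exonic length and 0.065 by longest transcript. Same-numbered libraries did not deviate together from their group means (correlations of -0.13, 0.01 and -0.10 over 10940 genes). The outlying siUsf2 3 entered the siUsf2 mean and dominates those deviations, so this check cannot decide whether the numbers pair the libraries. A replicate block gave 3989 calls in 5 libraries and 0 in 6, with Ttn at -0.24 (edgeR adjusted p = 0.713) and Neb at -1.10 (edgeR adjusted p = 0.182) in 5. In the 5 libraries siControl 3 has no same-numbered siUsf2 library, so the block comes close to leaving siControl 3 out. Depth limited siUsf2 3 most, where 3 counts stand for 0.879 CPM, against 0.169 to 0.203 CPM elsewhere.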
